A study of Mus musculus with 6 samples.

Results

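The Hedgehog pathway genes described here are Shh, Ptch1, Smo, Gli1, Gli2, Gli3, Hhip and Sufu, in kidneys of mouse embryos at embryonic day 12.5. They are 8 of the 18193 genes that the array names, and each was taken through all probe sets whose platform annotation gives its symbol and no other, 21 of 45101 probe sets. The probe sets were taken by symbol alone, with no rule on their values. RNA of whole kidneys was hybridised to 6 single-colour Affymetrix arrays. The 3 normal arrays carry no further genotype in the labels. The 3 knockout arrays came from kidneys deficient in beta-catenin, in which an allele of Ctnnb1 with loxP sites around exons 2 to 6 was combined with Hoxb7-Cre:Gfp. The Hoxb7 promoter drives Cre recombinase in the ureteric bud, so the mesenchyme, stroma and vessels in the sample are not its target. Kidneys were assigned at random to vials, 3 in number, and the number of embryos in a vial is not given in the sources used here. The samples are called biological replicates, but p-values measure only the spread between these vials, part of which may be technical. The description field of the knockout samples repeats the wording for normal kidneys, and every direction below follows the titles and source names. Values by array are given in the order of replicates 1, 2 and 3.

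Hedgehog ligands are secreted proteins that bind the receptor Patched. Without ligand, Patched holds the membrane protein Smoothened inactive, and Gli factors are retained by Sufu or processed into repressors. With ligand, Smoothened acts through the primary cilium to free Gli activators, and Ptch1, Gli1 and Hhip are themselves induced by the pathway, so that their RNA is a common readout of it. In the developing kidney Shh is made by the more distal ureteric epithelium and received by the mesenchyme around the ureter and the medulla, where it bears on proliferation and smooth muscle formation.

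No Hedgehog probe set passed the adjusted threshold between knockout and normal kidneys. Of the 21 probe sets, 15 passed a filter on dim signals (a geometric mean over the 6 arrays above 14.7 units of signal), and each of the 8 genes kept at least 1 of them. Among these 15, 0 passed limma's test at a Benjamini-Hochberg adjusted p of 0.05, against 0.581% of all 27022 probe sets tested. At so low a share, 0 of 15 says little about the members. None of the 15 had an unadjusted p under 0.05 either, against 11.5% of all probe sets. The smallest adjusted p was 0.497, for Gli1. In none of the 15 did the knockout arrays lie wholly above or below the normal arrays, which 17.9% of all probe sets tested did. The median log2 difference, knockout minus normal, was -0.14 over the 15 and -0.01 over all probe sets tested, with 11 of the 15 below 0 where 51.9% of all were. The 15 come from 8 genes on the same 6 arrays, so they are not independent. Without normal replicate 1, 7 of the 15 were below 0.

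**Figure D1:**
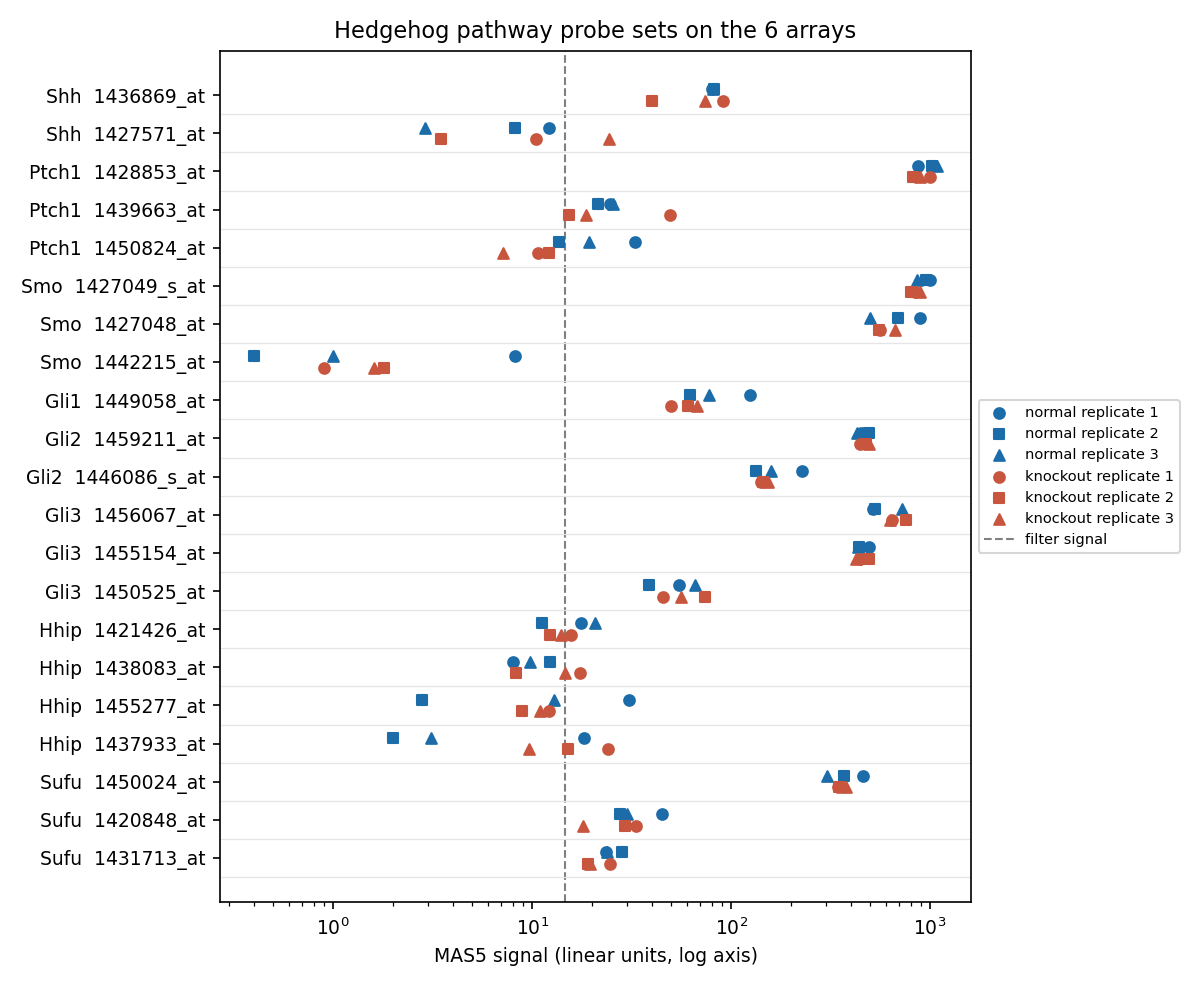
MAS5 signal (log axis, linear units) of the 21 Hedgehog probe sets on each of the 6 arrays. Blue points are normal and red points are knockout arrays, the marker shape gives the replicate number, and the dashed line is the filter signal of 14.7. The red and blue ranges overlap in all 15 probe sets above the filter.

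The ligand Shh was measured by a moderately bright and a dim probe set. The brighter one (1436869_at) read 80.4, 82.3 and 81.1 on normal arrays and 91.4, 40.1 and 73.7 on knockout arrays. The normal arrays lay within 2 units of each other, while the knockout arrays held both the highest and the lowest value. The mean was 81.3 ± 0.961 in normal and 68.4 ± 26.1 in knockout kidneys (SD, n = 3 per group). The log2 difference was -0.33 (SE 0.28; 95% interval from -0.97 to 0.31; limma adjusted p = 0.675). Without knockout replicate 2 it was 0.01, so the lower mean came from that array. The dim Shh probe set (1427571_at) stayed under the filter, with values from 2.9 to 24.2.

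Markers of the epithelium that makes Shh also varied between arrays, but not all in the same way. Their list, of ureteric epithelium and urothelium, was summed over its 13 genes and is led by Calb1, a calcium-binding protein of the ureteric bud. The sum was 3236, 3720 and 3014 on normal arrays and 4223, 2734 and 3576 on knockout arrays. Knockout replicate 1 was highest and knockout replicate 2 lowest for both Shh and this sum. Calb1 alone read 2302 and 1204 in knockout replicates 1 and 2. Of the list's 13 genes 10 were tested and 0 passed, and 3 (Hoxb7, Upk1b and Upk3a) lay under the filter. At an unadjusted limma p under 0.05, 2 were higher in the knockout and 0 lower. The 2, Upk2 and Upk1a, were dim and are named after their values were seen. Calb1, Gata3, Krt8, Krt18 and Wnt7b were lowest in knockout replicate 2. Upk1a was highest there, at 45.7, and Cdh1 read 399.6, above every normal array. Knockout replicate 2 also had the highest sum of 15 skeletal muscle genes, 7363 against 1470 and 664.3 in knockout replicates 1 and 3 and 494.8 to 623.9 in the normal arrays, with 11 of the 15 genes above the filter. In whole kidneys fewer cells of a type and less RNA per cell cannot be told apart. The part of either list in the Shh values was not tested.

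The receptor Ptch1, itself a target of the pathway, was brightly detected by 1 of its 3 probe sets, and no probe set of it passed the test. Its main probe set (1428853_at) read 865, 1026 and 1084 on normal arrays and 1001, 821.5 and 893.2 on knockout arrays. The groups overlapped, with a log2 difference of -0.13 (SE 0.11; limma adjusted p = 0.673). As a ratio of knockout to normal, the 95% interval ran from 0.767 to 1.09. The second probe set (1439663_at) was dim, at 24.5, 21.3 and 25.5 on normal arrays and 49.3, 15.3 and 18.6 on knockout arrays, and its log2 difference of 0.03 (SE 0.44) turned to -0.49 without knockout replicate 1. The remaining Ptch1 probe set (1450824_at) lay under the filter and read 32.8, 13.7 and 19.2 on normal arrays and 10.7, 12.1 and 7.1 on knockout arrays. It is the 1 member probe set whose groups did not overlap. All knockout values and the lowest normal value were under the filter signal, and in a fit with no filter its log2 difference of -1.08 (SE 0.51) had a limma adjusted p of 0.570.

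Smoothened (Smo), the membrane protein that passes the signal on, was measured by 2 bright probe sets and a dim one. The brightest (1427049_s_at) read 993.2, 949.1 and 859 on normal arrays and 835.8, 804.9 and 892.7 on knockout arrays. The knockout arrays were the lower group except that knockout replicate 3 exceeded normal replicate 3. The log2 difference was -0.14 (SE 0.09; limma adjusted p = 0.561), and the ratio of knockout to normal had a 95% interval from 0.788 to 1.04. The other bright one (1427048_at) read 885.5, 690.3 and 498.2 on normal arrays and 561.4, 556 and 662 on knockout arrays. Its log2 difference was -0.19 (SE 0.19) and turned to 0.01 without normal replicate 1. The dim Smo probe set (1442215_at) read between 0.4 and 8.2.

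Gli1, the Gli factor that is itself a Hedgehog target and acts as an activator, had the largest difference among the 15 probe sets above the filter, and that difference did not pass. Its single probe set (1449058_at) read 124.2, 62 and 77.4 on normal arrays and 50.1, 60.9 and 67.1 on knockout arrays. Normal replicate 1 stood above the rest, and the other normal arrays overlapped the knockout arrays. Means were 87.9 ± 32.4 in normal and 59.4 ± 8.60 in knockout kidneys (SD, n = 3 per group). The log2 difference was -0.51 (SE 0.27; 95% interval from -1.12 to 0.09; limma adjusted p = 0.497). It was -0.23 without normal replicate 1 and -0.12 without replicate 1 of both groups.

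Normal replicate 1 was also the array with the most signal from chromaffin and sympathetic genes, which mark adrenal medulla and nerve cells. Of 12 such genes on the array 11 were above the filter, and the sum over the 12 was 2133, 477.8 and 719 on normal arrays and 1658, 989.7 and 541.7 on knockout arrays. Knockout replicate 1 was second for this sum and lowest for Gli1. The list for gut endoderm, floor plate and notochord, tissues that make or receive Hedgehog signals outside the kidney, summed to 117.6 in normal replicate 1 and to 34.8 to 52.5 on the other arrays, and Sox2 gave 67.1 of the former. Its other 5 genes on the array, Foxa1 and Foxa2 among them, lay under the filter. Steroid-making cells of the adrenal cortex and gonad had 6 of 9 markers under the filter, and the enzyme Cyp17a1 read 2.2 at most. Above the filter were Mc2r, the ACTH receptor of the adrenal cortex, at 61, 61 and 58.7 on normal arrays and 41, 57 and 51.8 on knockout arrays, Star, which moves cholesterol into mitochondria, from 19.8 to 32.9 over all arrays, and Scarb1, a lipoprotein receptor found in many cells. Mc2r was lower on all knockout arrays, with a limma adjusted p of 0.612. The sum ran from 301.8 to 329.3 in normal and from 292.6 to 297.2 in knockout arrays, mostly from Scarb1. The list for ureteric mesenchyme and smooth muscle summed to 5335 in normal replicate 1, behind only knockout replicate 2 at 5426. Tbx2 read 377.4 in normal replicate 1 against 149.4 to 252.3 elsewhere, and Smtn 198.3 against 112.8 to 141. Both were named after their values were seen, and others, Tbx18 among them, were highest on another array. The part of any of these lists or genes in the Gli1 values was not tested.

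**Figure D2:**
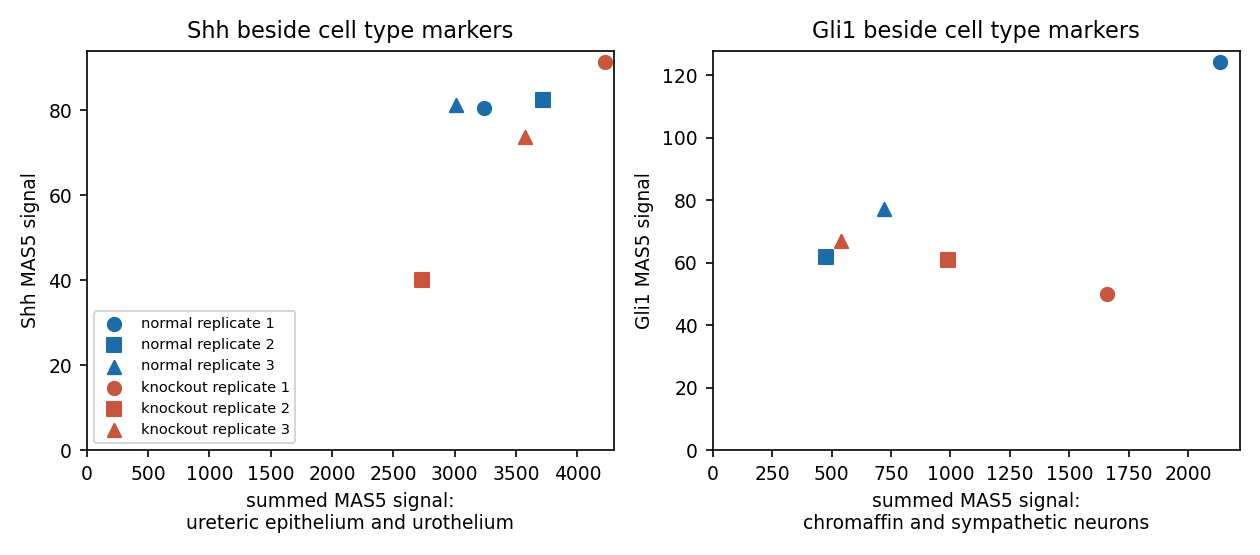
Signal of Shh (left) and Gli1 (right) on each array (vertical axes, MAS5 units) against the summed signal of the ureteric epithelium list (left) and the chromaffin and sympathetic list (right). Colours give the group and shapes the replicate. Knockout replicate 2 is lowest on both axes on the left, and normal replicate 1 is highest on both axes on the right.

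Gli2, the main activator among the Gli factors, had 2 probe sets above the filter, and neither passed. Its brighter probe set (1459211_at) read 448.6, 493.6 and 431.2 on normal arrays and 441.6, 477.2 and 493.8 on knockout arrays. The values interleaved, with a log2 difference of 0.04 (SE 0.10; limma adjusted p = 0.894) and a 95% interval of the knockout to normal ratio from 0.885 to 1.20. The dimmer one (1446086_s_at) read 225.9, 133.7 and 158.9 on normal arrays and 141.2, 145 and 153.3 on knockout arrays. Normal replicate 1 again stood above the others, and the log2 difference of -0.20 (SE 0.19) became 0.01 without it.

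Gli3, the chief source of Gli repressor, was measured by 3 probe sets that did not move together. The brightest (1456067_at) read 515.8, 530.7 and 723.8 on normal arrays and 646.2, 760.3 and 630.7 on knockout arrays. Its log2 difference of 0.22 (SE 0.14; limma adjusted p = 0.587) was the largest positive one among the 15 above the filter, and normal replicate 3 lay within the knockout range. The next (1455154_at) read 493, 438.4 and 433.7 on normal arrays and 443.4, 491.8 and 425.6 on knockout arrays, with a log2 difference of -0.005 (SE 0.10) and a 95% interval of the ratio from 0.852 to 1.17. The dimmest (1450525_at) ranged from 38.5 to 65.6 in normal and from 45.4 to 74.2 in knockout arrays. The arrays measure RNA and give no measure of the split between full-length Gli3 and its repressor form, which is made from the protein.

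The inhibitor Sufu, which retains Gli factors in the cytoplasm, had 3 probe sets above the filter and none that passed. The bright one (1450024_at) read 462, 367.5 and 301.9 on normal arrays and 342.4, 349.3 and 379.6 on knockout arrays. The knockout arrays fell inside the normal range, and the log2 difference was -0.06 (SE 0.15; limma adjusted p = 0.906). The others were much dimmer, with log2 differences of -0.36 (SE 0.33; 1420848_at) and -0.27 (SE 0.29; 1431713_at).

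Hhip, a membrane protein that binds and traps Hedgehog ligands and is a target of the pathway, was near the floor on these arrays. Only 1 of its 4 probe sets (1421426_at) passed the filter, at 17.5, 11.2 and 20.7 on normal arrays and 15.7, 12.3 and 14 on knockout arrays. The log2 difference was -0.20 (SE 0.39; limma adjusted p = 0.876), and the 95% interval of the ratio, from 0.474 to 1.61, is wide. Over the other 3 probe sets values ran from 2 to 30.7 in normal and from 8.3 to 24.1 in knockout arrays. The largest difference among them was that of 1437933_at, which read 18.3, 2 and 3.1 on normal arrays and 24.1, 15.1 and 9.6 on knockout arrays, with a log2 difference of 1.65 (SE 0.86; limma adjusted p = 0.611) in a fit with no filter.

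**Figure D3:**
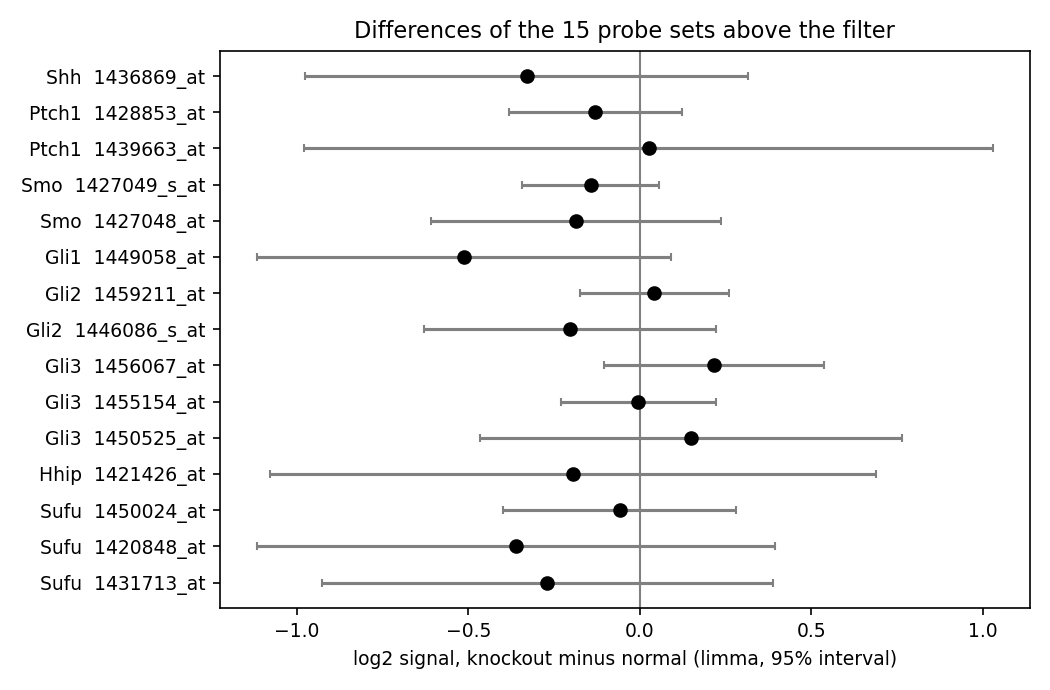
Log2 difference in signal, knockout minus normal, of the 15 Hedgehog probe sets above the filter (points), with the 95% interval from the limma fit (bars, 3 arrays per group). Each interval includes 0, and the narrowest belong to bright probe sets of Smo, Gli2, Gli3 and Ptch1.

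The intervals set what these arrays could show. For 11 of the 15 probe sets the whole 95% interval lay within a 2-fold change either way, as it did for 74.6% of all probe sets tested, and for 6 it lay within 1.5-fold. The widest bounds reached -1.12 (Gli1) and 1.03 (the dim Ptch1 probe set) on the log2 scale. A p that misses the threshold does not show that the levels were equal. Normal arrays were more spread than knockout arrays in 10 of the 15, as in 62.6% of all probe sets. Normal replicate 1 held the highest value of 7 of the 15 members, and of 27.6% of all probe sets tested. With that array left out, 7 of the 15 differences were negative and their median was 0.006. With replicate 1 of both groups left out, 8 were negative and the median was -0.09.

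By a rule of closest pattern, the genes whose log2 signal over the 6 arrays was most like that of Shh were Tmc8, Agps and Grin2d, with Pearson correlations from 0.986 to 0.990 across arrays. For Ptch1 they were Ddt, Jam3 and Pdia5 (0.978 to 0.987), and for Gli1 they were Adat1, Rasd2 and Rapgef1 (0.990 to 0.994). Each is the best match among 12456 genes over only 6 arrays, and 21 genes exceeded 0.95 for Shh, 19 for Ptch1 and 53 for Gli1. They are a description of which arrays were high or low. Tmc8, for instance, read 10.1 in knockout replicate 2, the array low in Shh, against 35.2 to 61.9 elsewhere.

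The wider pathway was described through 7 lists with 93 genes besides the members, each gene by its brightest probe set above the filter. Of the 93, 87 were on the array under these symbols and 79 were tested, and the remainder are not analysed here. No gene passed limma's adjusted threshold, against 0.602% of all 12464 genes tested. At an unadjusted p under 0.05 there were 12 of the 79 (15.2%), against 11.7% of all genes. Of these, 8 were lower in the knockout, where 5.57% of all genes were, and 4 were higher, where 6.14% were. The groups did not overlap for 21 of the 79 (26.6%), against 19.3% of all genes. The median log2 difference was -0.04 over the 79 and -0.003 over all genes.

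**Figure D4:**
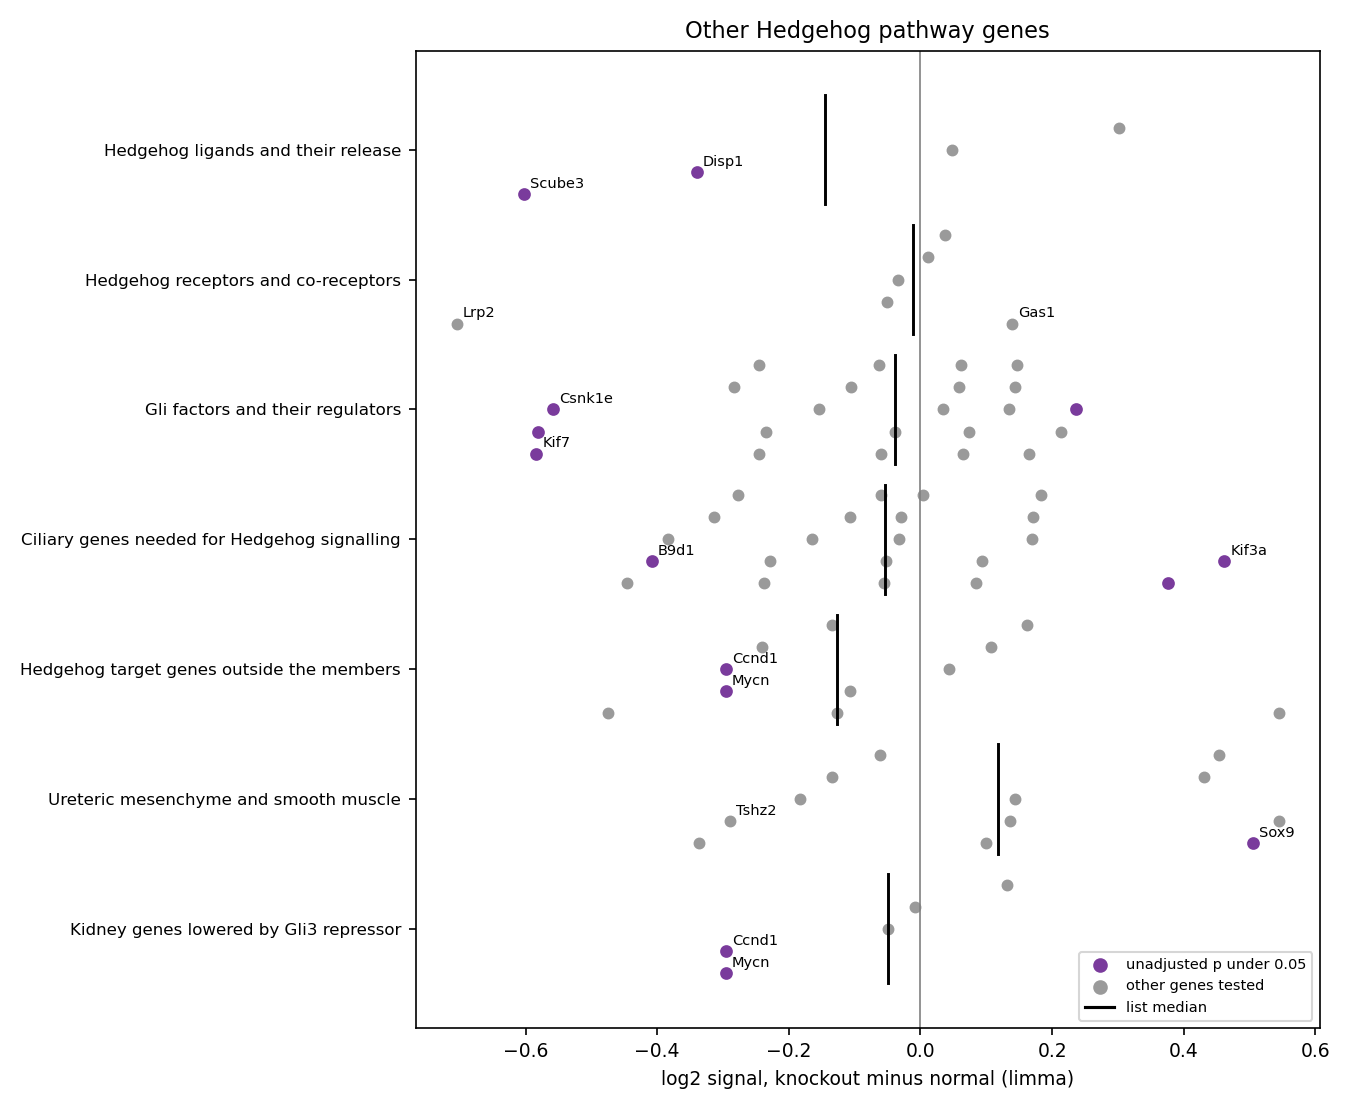
Log2 difference in signal, knockout minus normal, of each tested gene of the 7 pathway lists (points, 3 arrays per group), with list medians as vertical bars. Purple points have an unadjusted limma p under 0.05, and none passed the adjusted threshold. Vertical position within a list carries no value, labels mark genes chosen by the naming rule, and genes in several lists appear in each.

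Among ligands and release factors, 4 of 8 genes were tested, and 2 of them had an unadjusted p under 0.05, both lower. Scube3, a secreted glycoprotein of a family that helps to release Hedgehog ligands, read 310.1, 341.8 and 266.2 on normal arrays and 229.6, 171.2 and 205.3 on knockout arrays. All knockout arrays lay below all normal arrays, and the log2 difference was -0.60 (SE 0.15) at a limma adjusted p of 0.160. Disp1, the membrane transporter that releases lipid-modified ligand, read 225.5, 184.2 and 169.7 against 149.2, 146.8 and 158.8, a log2 difference of -0.34 (SE 0.14; limma adjusted p = 0.410), and its second probe set stood at -0.17 (SE 0.33). The other ligands were not above the filter. Ihh read at most 14.4, and Dhh at most 19.1 on any array.

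Of 7 receptors and co-receptors outside the members, 6 were tested and 0 had an unadjusted p under 0.05 by their brightest probe set. The co-receptors, which present ligand to Patched, were well detected. Gas1 read from 3567 to 4324 in normal and from 4003 to 4641 in knockout arrays, a log2 difference of 0.14 (SE 0.09; limma adjusted p = 0.588), although its other 2 probe sets stood at -0.02 and -0.70. Boc differed by 0.01 (SE 0.14) and Cdon by 0.04 (SE 0.13). Lrp2, an endocytic receptor that also binds Shh, was dim and stood at -0.70 (SE 0.34; limma adjusted p = 0.465), with 34.8, 30.2 and 30 on normal arrays and 21.4, 12.8 and 26.6 on knockout arrays. Its second probe set above the filter, 1427133_s_at, stood at -1.23 (SE 0.54; limma adjusted p = 0.432) with an unadjusted p of 0.0476, and the mean of both gave -0.97. The groups did not overlap in either probe set.

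Among 23 tested regulators of Gli factors, 3 had an unadjusted p under 0.05 and a lower signal (Csnk1e, Kif7 and Efcab7) and 1 a higher one (Prkacb). Efcab7 and Prkacb were named after their values were seen. Csnk1e, a casein kinase, came closest to the threshold of all pathway genes. It read 994.4, 964.6 and 919.6 on normal arrays and 568.2, 687.6 and 706 on knockout arrays, with a wide gap between the groups. Its log2 difference was -0.56 (SE 0.10; limma adjusted p = 0.0572). With quantile normalization the adjusted p was 0.0442 and with log2(signal + 16) it was 0.0486, while over all alternatives it ran from 0.0442 to 0.320. Its second probe set, of intermediate brightness, stood at -0.01 (SE 0.16) and its dimmest at -0.58 (SE 0.29), and the mean of the 3 gave -0.38 (limma adjusted p = 0.290). Kif7, a kinesin at the tip of the cilium that regulates Gli processing, read 180.6, 133.3 and 143.4 on normal arrays and 99.3, 111.9 and 92.2 on knockout arrays. The groups did not overlap, with a log2 difference of -0.58 (SE 0.16; limma adjusted p = 0.228).

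Of 22 tested ciliary genes 1 (B9d1) was lower and 2 (Kif3a and Ofd1, the latter named after its value was seen) were higher at an unadjusted p under 0.05. B9d1, a protein of the ciliary transition zone, stood at -0.41 (SE 0.13; limma adjusted p = 0.291). Kif3a, a motor subunit that carries cargo into the cilium, stood at 0.46 (SE 0.11; limma adjusted p = 0.141). Its 3 other probe sets gave 0.37, -0.07 and -0.08, so they did not share a direction.

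Target genes outside the members gave 2 of 11 with an unadjusted p under 0.05, both lower, and the same genes were the 2 of 5 in the list of kidney genes lowered by Gli3 repressor. They were the cell cycle gene Ccnd1 at -0.30 (SE 0.09; limma adjusted p = 0.311) and the growth regulator Mycn, also at -0.30 (SE 0.11; limma adjusted p = 0.393). The 3 Mycn probe sets agreed in sign, at -0.30, -0.51 and -0.80, while those of Ccnd1 stood at -0.30, -0.34 and 0.11. Other signals act on both genes as well. Foxf1, a forkhead factor of Hedgehog-responsive mesenchyme, was dim, from 8.8 to 21.4 in normal and from 19.7 to 22.3 in knockout arrays. Its second probe set (1423013_at) lay under the filter, at 4.3, 9.4 and 11.3 on normal arrays and 2.8, 40 and 8.7 on knockout arrays. Bmp4, a growth factor of the mesenchyme around the ureter, stood at -0.14 (SE 0.12; limma adjusted p = 0.697).

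In the list for ureteric mesenchyme and smooth muscle, tissue that receives Shh, 1 of 12 genes had an unadjusted p under 0.05. It was Sox9, which the ureteric bud tip also expresses, at 0.50 (SE 0.13; limma adjusted p = 0.178). Tbx18, a transcription factor of the ureteric mesenchyme, read 514.2, 419.6 and 501.7 on normal arrays and 472.9, 526.5 and 585.5 on knockout arrays, with overlapping groups and a log2 difference of 0.14 (SE 0.12; limma adjusted p = 0.660). Tshz2 stood at -0.29 (SE 0.13) by its brightest probe set and at -0.74 (SE 0.19; limma adjusted p = 0.180) by the next. Myocd, which drives smooth muscle genes, was at -0.18 (SE 0.39). Acta2, smooth muscle actin, read 1224 in knockout replicate 2, the array high in skeletal muscle genes, against 292.9 to 594.9 elsewhere. Its log2 difference of 0.45 (SE 0.42) turned to -0.07 without that array. The part of muscle tissue in this value was not tested.

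The labels could not be checked through the targeted gene. The 3 probe sets of Ctnnb1 stood at 0.09, 0.12 and 0.16 on the log2 scale, knockout minus normal (limma adjusted p from 0.601 to 0.695), and where they lie relative to the deleted exons is not analysed here. Hoxb7 read at most 7.6 on any array. Kidney tissue was plain on all 6 arrays, with the stromal factor Foxd1 from 1665 to 2203 and the progenitor and mesenchymal factor Sall1 from 671.7 to 1112. Array medians ran from 24.9 to 32.1 units. Macrophage genes summed to 415.4 to 867 in normal and 843.9 to 1215 in knockout arrays, and erythroid genes to 11870 to 16040 and 14230 to 17500. Stroma genes summed to 9601 to 10180 in normal and 9650 to 11010 in knockout arrays. Of these 6 genes, 1 (Pdgfrb) was lower and 2 (Meis1 and Meis2) were higher at an unadjusted limma p under 0.05. Over all genes tested the share was 11.7%. They were named after their values were seen, and 0 stroma genes passed the adjusted threshold. Meis1 and Meis2 each had 1 other probe set above the filter of opposite sign. The number of arrays limits the precision of each value given.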

How the data were processed

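The authors deposited 1 linear signal intensity per probe set and array, made with MAS5 per the submitters' processing notes, from 1 µg of total RNA after biotin labelling per the labels' protocols. The sources used here name no version, detection calls or parameters of it, so these are not stated. MAS5 subtracts mismatch signal, so dim values scatter widely on a log scale. Each array's mean after trimming 2% at either end was 150.0, and no further scaling was applied. Here 15 zeros were replaced by 1.7 (10th percentile of all signals above 0) and log2 was taken. The 64 control probe sets were left out. Probe sets with a mean log2 signal above the 40th percentile were kept (27022 of 45037). Symbols came from the platform annotation: 34945 probe sets had 1 symbol, 932 several and 9160 none here, and updating through gene identifiers in a GRCm38.p6 gene table changed 0.

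Groups came from the sample titles. The 2 groups were set against each other in R 4.3.3 by limma 3.58.1, using lmFit and then eBayes with trend, and p-values of the kept probe sets were adjusted together by Benjamini-Hochberg and read at 0.05. The script was tested on simulated data. A gene outside the members is its brightest kept probe set. The members and lists were chosen with earlier results of these data known, and the lists come from general knowledge. Named genes are all member probe sets, Ctnnb1 and Hoxb7, the 2 genes of smallest p in each pathway list with none past the threshold, 12 fixed by name, and the 3 closest in pattern to Shh, Ptch1 and Gli1. Alternatives covered scaling, filter, pseudocount, variance model, array weights, the replicate number as a block, probe set averaging, the threshold, and leaving out arrays.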

Additional observations from a re-analysis of the deposited data

How the results depend on the processing

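Under each alternative listed in the methods, 0 member probe sets passed the threshold, and the lowest adjusted p of any was 0.261 over 259 values. The count of 0 members with an unadjusted limma p under 0.05 did change. It was 1 with the filter at the 20th percentile, without normal replicate 1, without normal replicate 2, or without replicate 1 of both groups. Without normal replicate 3 it was 2. Among the other pathway genes 0 passed in the fit as reported, and 1 (Csnk1e) passed with quantile normalization, with log2(signal + 16) or at an adjusted p of 0.10. The replicate block changed no call, with 0 members and 0 pathway genes. The labels name no pairing of arrays. Correlations of deviations were 0.0827, -0.108 and -0.201 for same-numbered arrays, and ran from -0.232 to 0.302 for the other pairs. With 3 arrays per group these values cannot show whether same-numbered arrays were paired.

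Of the 15 member differences 7 kept their sign throughout. The others reversed under some alternatives, in each case with no call. With arrays left out, singly or replicate 1 of both groups, the log2 difference ran from -0.403 to 0.049 for Smo 1427048_at, from -0.588 to 0.0143 for Shh 1436869_at, from -0.49 to 0.354 for Ptch1 1439663_at, from -0.372 to 0.0326 for Gli2 1446086_s_at, from -0.000632 to 0.0969 for Gli2 1459211_at, from -0.208 to 0.129 for Sufu 1450024_at, from -0.0627 to 0.355 for Gli3 1450525_at and from -0.0645 to 0.0693 for Gli3 1455154_at. Array weights gave 0.0397 (Sufu 1450024_at) and 0.0252 (Gli3 1455154_at), centring on the median 0.00511 (Gli3 1455154_at), and the mean of probe sets -0.0814 (Gli2). Among other named genes, leaving out arrays gave ranges of -0.108 to 0.123 for Boc, -0.0952 to 0.122 for Cdon, -0.0716 to 0.836 for Acta2 and -0.586 to 0.239 for Myocd, and the mean of probe sets reversed Gas1 (-0.193). Apart from the arrays left out, the cause was not tested. With 3 arrays per group and signals near the filter, small changes of Hhip and of the dim Ptch1 probe sets could not be detected. Nor could those of Shh, whose signal was well above the filter but whose log2 values spread by an SD of 0.616 on the knockout arrays. The same holds for Gli1 (SE 0.27), the dimmest Gli3 probe set (SE 0.27) and the dimmer Sufu probe sets (SE 0.33 and 0.29).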
